A study of Canis lupus familiaris with 8 samples.

Results

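The let-7 family was examined in serum RNA of Doberman Pinschers, on 8 one-colour miRNA arrays of a single slide. A miRNA name belonged to the family when, without its species prefix, it started with let-7 and was no passenger strand, or was miR-98. Of the 1224 miRNA names on each array, 10 met this rule. The canine names were cfa-let-7a, cfa-let-7b, cfa-let-7c, cfa-let-7e, cfa-let-7f, cfa-let-7g, cfa-let-7j and cfa-miR-98, and the murine names were mmu-let-7d and mmu-let-7i. No family name was listed for both species. The DCM group held 4 client-owned dogs with dilated cardiomyopathy, labelled DoCM5, DoCM6, DoCM7 and DoCM8. These dogs were in the occult stage of the disease and under medication, as described by the study. An effect of the medication cannot be told apart from that of the disease. The control group held 4 healthy client-owned dogs, labelled Con1 to Con4. The labels give all dogs as adults of 7 to 11 years, whereas the clinical data of the study list the dogs named DoCM5 and DoCM8 outside this range, the former older and the latter younger. Each array carried the serum of a single dog. Serum holds no cells of its own, and its miRNAs can come from blood cells, platelets and many tissues.

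The let-7 miRNAs form a family of small RNAs that share their seed, the stretch near the 5′ end that pairs with target mRNAs, and miR-98 belongs to the same family. They repress mRNAs of growth and development genes, among them RAS and HMGA2, and rise as cells differentiate. The precursors are held back by LIN28 in embryonic cells. Several let-7 genes produce the same mature miRNA, and some are transcribed together with miR-99, miR-100 or miR-125 genes. In the RefSeq gene table of UU_Cfam_GSD_1.0, MIRLET7B and MIRLET7A-1 are direct neighbours, as are MIRLET7D and MIRLET7F. MIRLET7C lies between MIR99A-1 and MIR125B-2, MIRLET7A-2 lies beside MIR99A-2, and MIRLET7E lies beside MIR125A. MIRLET7G lies between WDR82 and PPM1M, and MIR98 beside HUWE1.

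The array labelled DoCM5 stood apart from the others. Its median correlation with the other arrays was 0.924, whereas the other 7 arrays had medians between 0.957 and 0.968. The study left out a sample by the name of DoCM8 for inconsistent expression. Because the array that carries this label had a median correlation of 0.968, all 8 arrays were used here and the differences of the members are given without DoCM5 and without DoCM8 as well. The DCM arrays filled row 1 of the slide and the control arrays row 2, and the effect of the row cannot be told apart from that of the group. Between 10817 and 14000 of the 48960 features of an array were well above background. With 4 arrays a group, precision is limited throughout.

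The family was well represented in serum. Of its 10 names, 8 were detected, as were 438 of all 1224 names. A name counted as detected when at least 1 of its 40 features passed the scanner's background test in 2 or more arrays of the same group. All 40 features were kept for cfa-let-7a, cfa-let-7b, cfa-let-7c, cfa-let-7f, cfa-let-7g, mmu-let-7d and mmu-let-7i, and 32 for cfa-miR-98. On none of the arrays were more than 2 of the 40 features of cfa-let-7e or more than 1 of the 40 features of cfa-let-7j well above background. These 2 miRNAs were therefore not well above background and enter no comparison. No feature of the family was saturated.

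Before normalization, cfa-let-7g, cfa-let-7b and mmu-let-7i gave the brightest signals of the family. The mean signal of cfa-let-7g ran from 382 on Con2 to 3281 on DoCM5, with a median of 653, and placed it between rank 26 and rank 34 of the 438 detected names. The signal of cfa-let-7b ran from 373 on DoCM7 to 3082, between rank 28 and rank 44. The signal of mmu-let-7i ran from 264 to 2397, between rank 31 and rank 45. Then followed cfa-let-7c with a median signal of 204, cfa-let-7a with 226 and cfa-let-7f with 172. The dimmest members were mmu-let-7d, with a median signal of 57.4, and cfa-miR-98, with 21.3 and ranks between 134 and 246. A probe signal depends on the probe as well as on the amount of RNA, and this order is one of signals, not of amounts.

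The order was much the same on all arrays. Of the 28 pairs of detected members, 24 had the same order on all 8 arrays. The pairs that changed places were cfa-let-7g with cfa-let-7b, cfa-let-7b with mmu-let-7i, cfa-let-7c with cfa-let-7a and cfa-let-7c with cfa-let-7f. On DoCM6 and DoCM8, cfa-let-7c was below cfa-let-7f, and cfa-let-7b was below mmu-let-7i. On the other 6 arrays cfa-let-7c was above cfa-let-7f and cfa-let-7b above mmu-let-7i. On Con4 cfa-let-7b was above cfa-let-7g.

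After normalization by the vsn model, levels are given on its log scale of base 2, called glog2. The miRNA cfa-let-7f was higher on every DCM array than on any control array. Its level was 8.49 on DoCM5, 7.43 on DoCM6, 7.62 on DoCM7 and 7.57 on DoCM8. On the control arrays it was 7.36 on Con1, 6.93 on Con2, 7.33 on Con3 and 7.23 on Con4. The groups did not overlap, but the lowest DCM array was only just above the highest control array. The difference was 0.56 on the log2 scale (standard error 0.30, 95% interval -0.094 to 1.22), with p = 0.0864 and an adjusted p of 0.956 from limma and a two-sided p of 0.0286 from the exact permutation test, the smallest that 4 arrays against 4 allow. Over all detected names, 12 of 438 (2.74%) had groups that did not overlap, and cfa-let-7f was the one member among them. Without DoCM5 the difference of cfa-let-7f was 0.33 (standard error 0.18, limma p = 0.101, exact permutation p = 0.0286), and without DoCM8 it was 0.61 (standard error 0.35, limma p = 0.108, exact permutation p = 0.0286). The groups did not overlap in either set, which is nearly given once they do not overlap over all 8 arrays. Of all names, 8.68% had groups without overlap without DoCM5 and 4.34% without DoCM8. The groups of cfa-let-7f overlapped with scaling to the 75th percentile over the detected names and with the brightest probe of each name (exact permutation p = 0.0571 in both). The same held with the median over features and without a filter on dim features (exact permutation p = 0.143 in both). The number of cells that release a miRNA and the amount released per cell cannot be told apart in serum.

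The call limits of the study's methods were a p under 0.05 and a fold change over 1.5. None of the 8 members passed both of these in the limma test over all 8 arrays, whereas 18 of 438 names (4.11%) did, 8 of them higher (1.83%) and 10 lower (2.28%) in DCM. Without DoCM5 and without DoCM8 no member passed either, beside 4.34% and 2.74% of all names. After Benjamini-Hochberg adjustment 0 of the 438 names passed at 0.05. Without adjustment 19 names (4.34%) had a p under 0.05, of which 0 were members. The smallest adjusted p of all names was 0.392 and that of the members 0.956.

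Of the other members, mmu-let-7i was 10.02, 9.09, 9.07 and 9.38 on DoCM5 to DoCM8 and 9.18, 8.59, 9.07 and 8.91 on Con1 to Con4. DoCM5 and DoCM8 were above all control arrays, while DoCM6 and DoCM7 lay within their range. Its difference was 0.45 (standard error 0.30, limma p = 0.159, exact permutation p = 0.143), and 0.25 without DoCM5. The levels of cfa-miR-98 were 5.79, 4.16, 4.31 and 4.61 in the DCM group and 4.45, 3.89, 4.41 and 4.28 in the control group. Its difference of 0.46 (standard error 0.37, limma p = 0.230, exact permutation p = 0.314) was 0.096 without DoCM5.

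For cfa-let-7g, cfa-let-7a and mmu-let-7d the group difference was smaller than its standard error. The level of cfa-let-7g was 10.48, 9.32, 9.41 and 9.56 in the DCM group and 9.70, 9.13, 9.61 and 9.42 in the control group, a difference of 0.22 (standard error 0.32, limma p = 0.494, exact permutation p = 0.629). The level of cfa-let-7a was 9.06, 7.78, 8.03 and 8.02 in the DCM group and 8.19, 7.76, 8.09 and 8.04 in the control group, a difference of 0.20 (standard error 0.32, limma p = 0.536, exact permutation p = 0.8). In both miRNAs the DCM arrays other than DoCM5 lay within the range of the control arrays. The level of mmu-let-7d was 6.85, 5.90, 5.79 and 5.84 in the DCM group and 5.88, 5.44, 6.02 and 6.16 in the control group, a difference of 0.22 (standard error 0.32, limma p = 0.509, exact permutation p = 0.571). Without DoCM5 the differences of these 3 miRNAs were -0.032, -0.070 and -0.031, in the order cfa-let-7g, cfa-let-7a and mmu-let-7d, with 95% intervals that reached from -0.49 to 0.43 over the 3.

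The members with a difference below 0 over all 8 arrays were cfa-let-7b and cfa-let-7c. The level of cfa-let-7c was 9.27 on DoCM5, 7.36 on DoCM6, 8.06 on DoCM7 and 7.51 on DoCM8, against 8.46, 7.90, 8.04 and 8.41 on Con1 to Con4. DoCM5 was above and DoCM6 and DoCM8 were below all control arrays. The level of cfa-let-7b had the same shape, with 10.39, 8.77, 9.29 and 8.84 in the DCM group and 9.61, 9.09, 9.31 and 9.62 in the control group. Over all 8 arrays the differences were -0.15 for cfa-let-7c (standard error 0.40, limma p = 0.710, exact permutation p = 0.8) and -0.089 for cfa-let-7b (standard error 0.37, limma p = 0.813, exact permutation p = 0.8). Without DoCM5 they were -0.55 for cfa-let-7c (standard error 0.24, limma p = 0.0474, adjusted p = 0.681, exact permutation p = 0.143) and -0.44 for cfa-let-7b (standard error 0.22, limma p = 0.0790, exact permutation p = 0.143). The fold change of cfa-let-7c in this set was 1.46, under the limit of 1.5. Without DoCM8 the differences were 0.0048 and 0.051.

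**Figure D1:**
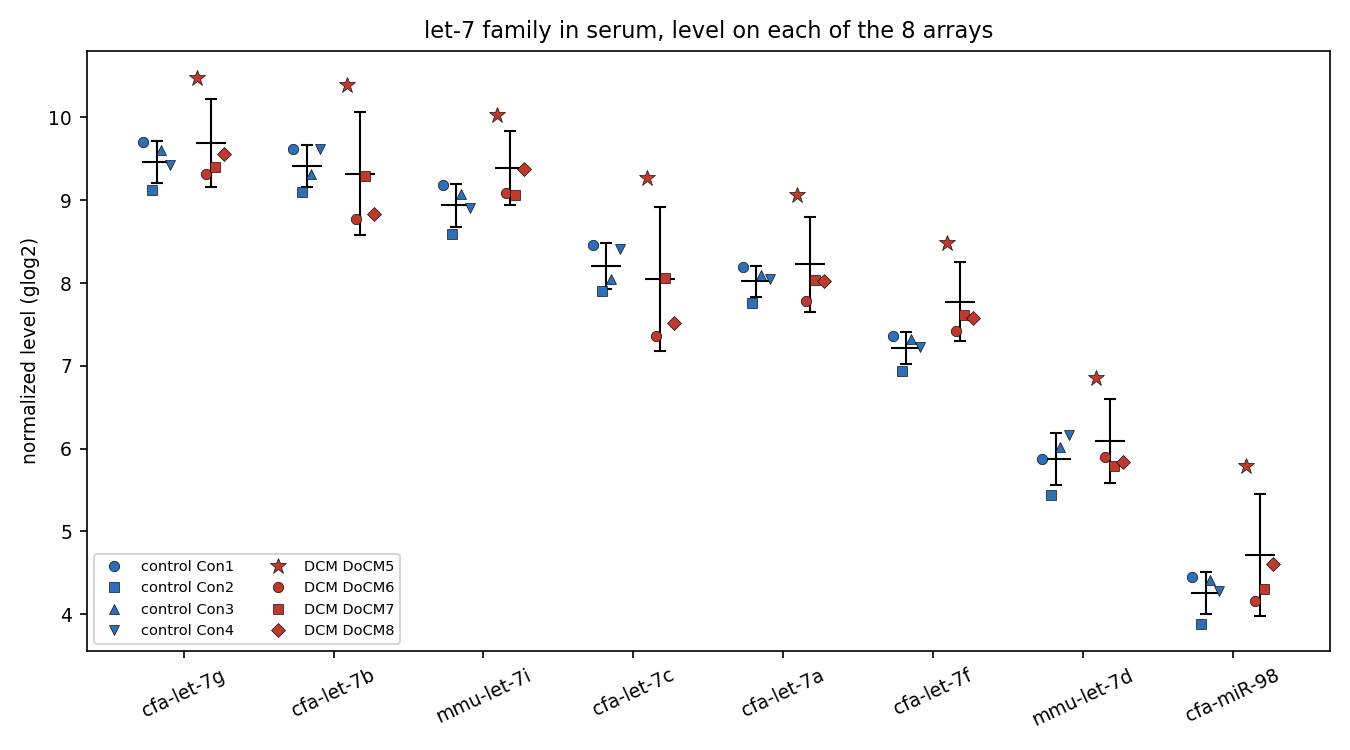
Level of the 8 detected members (glog2, vertical axis) on each array, with control arrays in blue and DCM arrays in red, and the mean and SD of each group (n = 4) as black bars. DoCM5, drawn as a star, is the highest array for all 8 members, and only cfa-let-7f has all 4 DCM arrays above all 4 control arrays.

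Over the 8 members the median difference was 0.22 on the log2 scale, beside -0.0002 over all 438 names, and 6 of 8 differences were above 0, beside 219 of 438. The sign of this median rested on 1 array. Without DoCM5 the median was -0.032 and 3 of 8 differences were above 0, beside 218 of 438. Without DoCM8 it was 0.27 and all 8 differences were above 0, the lowest being 0.0048.

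**Figure D2:**
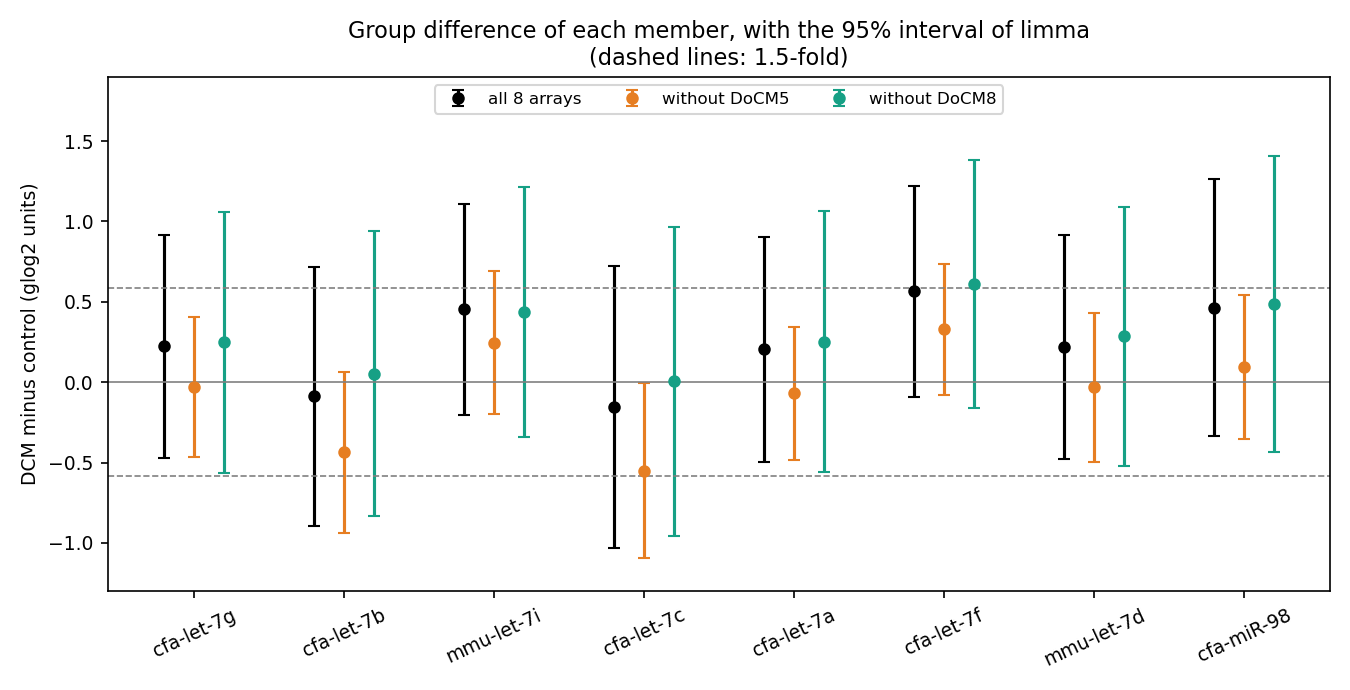
DCM minus control for each member (glog2 units) with the 95% interval of limma, over all 8 arrays (black), without DoCM5 (orange) and without DoCM8 (green). All intervals over 8 arrays include 0, and the one that excludes it without DoCM5 is that of cfa-let-7c, from -1.09 to -0.0079.

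All 8 members were higher on DoCM5 than on any other array. The level on DoCM5 exceeded the median of the other 7 arrays by 0.95 for mmu-let-7i, the lowest, and by 1.48 for cfa-miR-98, the highest, with a median of 1.07 over the members. A rise of at least 0.95 was seen for 19.6% of all 438 names. DoCM5 held the highest level for 135 names (30.8%) and the lowest for 124 names (28.3%), and the members were among the first. The mean of the centred levels of the 8 members was 1.0 on DoCM5 and lay between -0.45 and 0.063 on the other arrays. At the lower end, 6 members had their lowest level on Con2, and cfa-let-7b and cfa-let-7c had it on DoCM6.

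**Figure D3:**
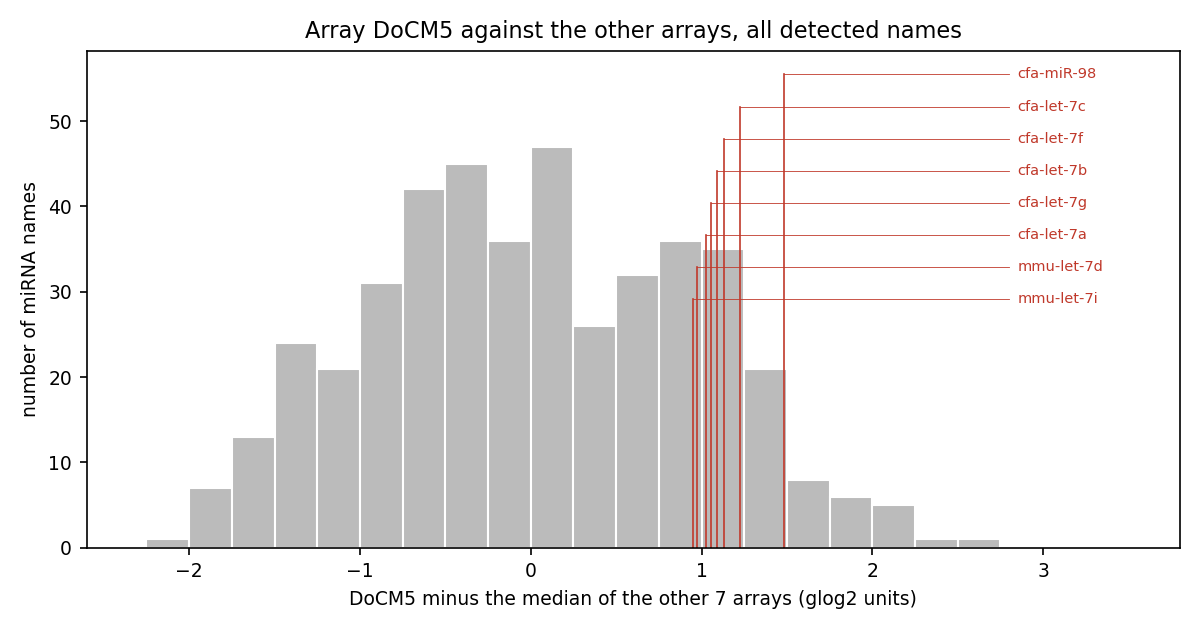
Number of miRNA names (grey bars, 438 in all) by the level on DoCM5 minus the median of the other 7 arrays (glog2 units), with the 8 members as red lines. The members lie together between 0.95 and 1.48, in the upper part of a broad distribution.

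The levels of marker miRNAs on DoCM5 are given beside those of the family. All 7 detected names of the platelet list (miR-126, miR-24, miR-191 and miR-197 in both listings where present) were above the median of the other arrays on DoCM5, 6 of them had their highest level there, and their median difference from it was 0.80, beside an upper quartile of 0.79 over all 438 names. The list was uneven, with 1.13 for mmu-miR-191 but 0.084 for cfa-miR-24 and 0.30 for mmu-miR-24, below the lowest member. The value of mmu-miR-191 is close to the floor, with a median signal of 4.73. The lowest signal well above background on any array was 6.21. The much brighter cfa-miR-191 had 0.78. The summed level of the platelet list ran from 3330 to 6705 in the DCM group and from 4301 to 5116 in the control group. The 2 brightest, cfa-miR-191 and mmu-miR-24, were 11.98 and 10.57 on DoCM5, and their highest levels on the other arrays were 11.72 and 10.46. Of the 5 erythrocyte names, 3 were above the median of the others on DoCM5. The brightest of these, cfa-miR-451, had its lowest level of all arrays on DoCM5, 16.49, while cfa-miR-16 had its highest, 13.79. Of the 8 leukocyte names, 6 were above the median of the others, but both miR-223 listings, the brightest of that list, were below it, with differences of -0.53 and -0.60. DoCM5 also had the brightest array, with a median signal of 33.9 for the detected names against 12.8 to 28.9 on the others. The part of platelets or of the array's brightness in the let-7 levels was not tested.

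The levels of the members were correlated over the 8 arrays. Pearson's r between 2 members ran from 0.57 to 0.997 over the 28 pairs, with a median of 0.89. For 21 of the 28 pairs the exact permutation p, adjusted by Benjamini-Hochberg over the pairs, was under 0.05. Spearman's rho had a median of 0.63, from 0.071 to 0.95, and 3 of the 28 pairs had an adjusted exact p under 0.05. Those 3 pairs were cfa-let-7b with cfa-let-7c, cfa-let-7a with cfa-let-7g, and cfa-let-7g with cfa-miR-98. For comparison, r over all 95703 pairs of detected names had a median of -0.026, and 16.37% of the pairs reached the lowest r of the family or more.

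A large part of this relation rested on DoCM5. Without that array the median r was 0.46, between -0.30 and 0.99, beside a median of -0.020 over all pairs of names, of which 70.4% reached the lowest r of the family in that set or more. Without the 2 arrays farthest from the median of the first miRNA of a pair, r had a median of 0.16, between -0.90 and 0.99, and 16 of 28 pairs were above 0. Within the control group alone r lay between 0.63 and 1.0 over the pairs, with a median of 0.78, and within the DCM group, which holds DoCM5, between 0.85 and 0.999. All arrays share 1 normalization.

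The pair cfa-let-7b and cfa-let-7c did not rest on that array. Its r was 0.997 (exact permutation p = 9.92e-05, adjusted 0.00243) with a rho of 0.95 (exact permutation p = 0.00114, adjusted 0.0313). It was 0.993 without the 2 farthest arrays, 0.999 within the DCM group and 0.987 within the control group. The difference in level between both miRNAs lay between 1.11 and 1.41 on the 8 arrays and did not separate the groups. Among the other 6 members, the 15 values of r were between 0.85 and 0.98 over 8 arrays and between 0.29 and 0.90 without DoCM5. Between cfa-let-7b or cfa-let-7c and those 6, the 12 values were between 0.57 and 0.89, and between -0.30 and 0.70 without DoCM5. The division of the members into these 2 sets was chosen after seeing the values and was not tested. Mature members of the family differ from each other by few bases, and how far the probes tell them apart was not tested.

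**Figure D4:**
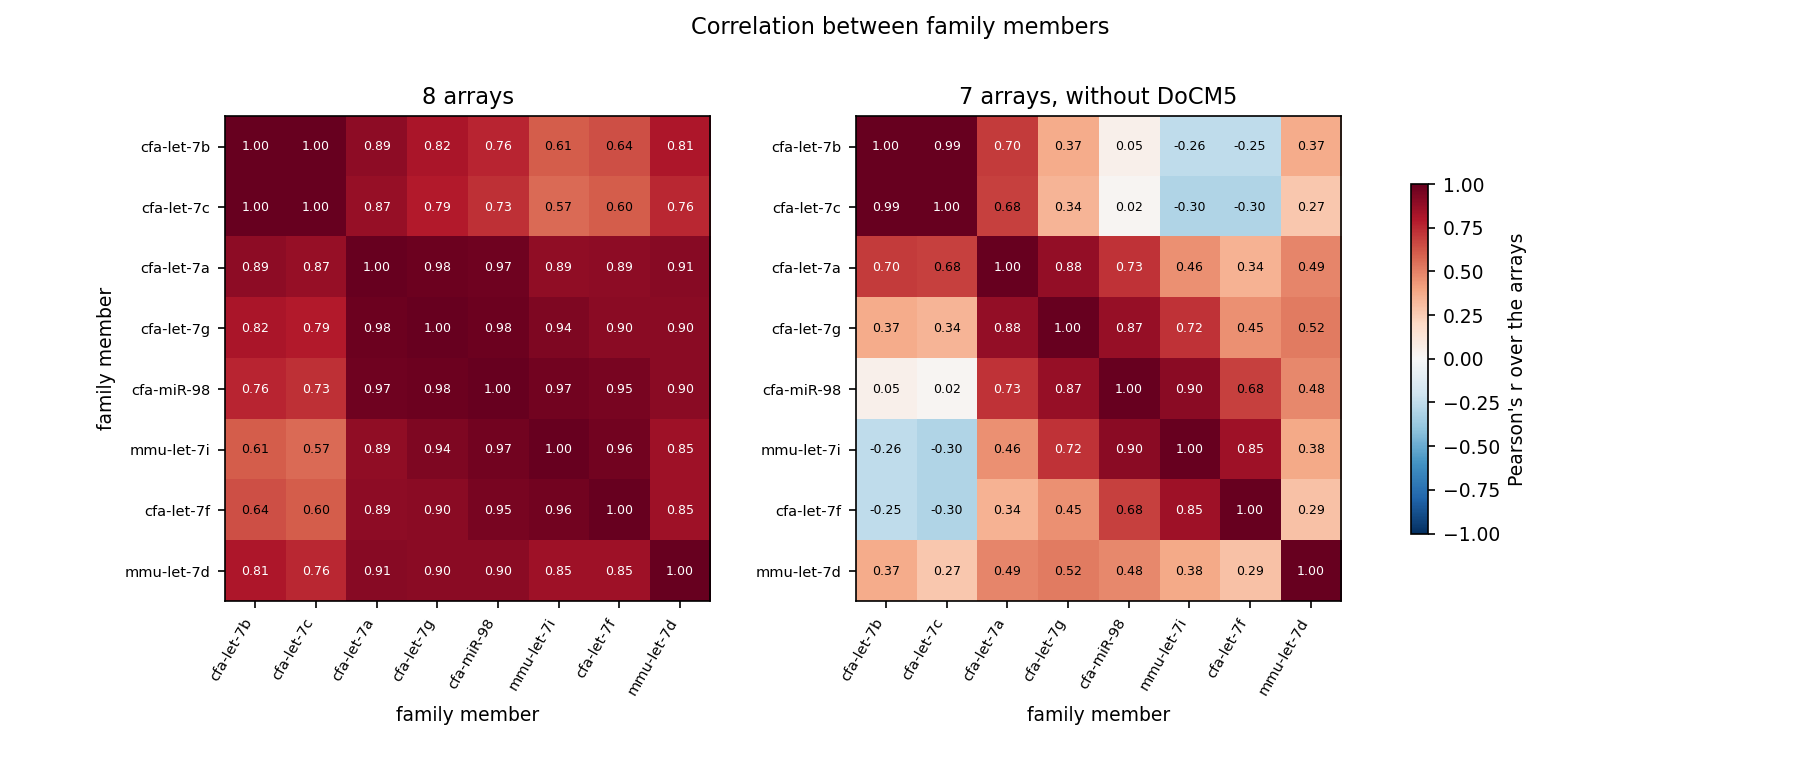
Pearson's r between family members over the 8 arrays (left) and over 7 arrays without DoCM5 (right), from -1 (blue) to 1 (red). The pair cfa-let-7b and cfa-let-7c stays near 1 in both panels, while the r of cfa-let-7f with cfa-let-7c goes from 0.60 to -0.30.

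A shift shared by 2 members cancels in their ratio on an array. Ratios were taken as the difference of 2 glog2 levels. In 5 of the 28 pairs the ratio had no overlap between the groups, beside 3.17% of all 95703 pairs of detected names. The pairs were cfa-let-7a with cfa-let-7f, cfa-let-7b with cfa-let-7f, cfa-let-7g with cfa-let-7f, mmu-let-7d with cfa-let-7f, and cfa-let-7g with mmu-let-7i. Since 4 of these 5 share cfa-let-7f, they are not independent of each other.

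The ratio of cfa-let-7a to cfa-let-7f was 0.58, 0.35, 0.42 and 0.45 on DoCM5 to DoCM8 and 0.83, 0.82, 0.76 and 0.82 on Con1 to Con4. The control arrays lay close together and all DCM arrays below them, DoCM5 included. The difference was -0.36 (exact permutation test, two-sided p = 0.0286, adjusted 0.145 over the 28 pairs), and -0.40 without DoCM5. The ratio of cfa-let-7g to mmu-let-7i was 0.45, 0.23, 0.34 and 0.18 in the DCM group and 0.53, 0.54, 0.54 and 0.51 in the control group. Here too the control arrays were nearly alike and the DCM arrays lower and more spread. The difference was -0.23 (exact permutation test, two-sided p = 0.0286, adjusted 0.145), and -0.28 without DoCM5.

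The ratio of cfa-let-7b to cfa-let-7f ran from 1.27 to 1.9 in the DCM group and from 1.98 to 2.39 in the control group, a difference of -0.65. The ratio of cfa-let-7f to cfa-let-7g ran from -1.99 to -1.79 in the DCM group and from -2.35 to -2.19 in the control group, a difference of 0.34. The genes of cfa-let-7f and let-7d are direct neighbours, and the ratio of cfa-let-7f to mmu-let-7d ran from 1.53 to 1.83 in the DCM group and from 1.06 to 1.5 in the control group, a difference of 0.35. These 3 pairs had the same exact permutation p of 0.0286, the smallest possible, and the same adjusted value of 0.145. All 5 pairs were without overlap also when DoCM5 or DoCM8 was left out, which nearly follows from how these pairs were selected. They were without overlap in the signals before normalization too, but normalization of whole arrays changes a ratio on an array little. With the median over features, cfa-let-7b with cfa-let-7f was the only pair of the 5 still without overlap. With quantile normalization alone, cfa-let-7f with mmu-let-7d and cfa-let-7g with mmu-let-7i overlapped, the latter also after normexp. In total 9 of 28 pairs had no overlap without DoCM5, beside 8.36% of all pairs of names, and 5 of 28 without DoCM8, beside 4.85%. The count was 8 without DoCM7, 13 without Con3, 10 with normexp background correction of the median signal followed by quantile normalization, 7 with quantile normalization alone, and 1 with the median in place of the mean over features. The share of all pairs of names was not computed for these settings, and these counts cannot be set against it. No ratio passed after adjustment over the 28 pairs, and a ratio does not show which of its 2 members differs.

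**Figure D5:**
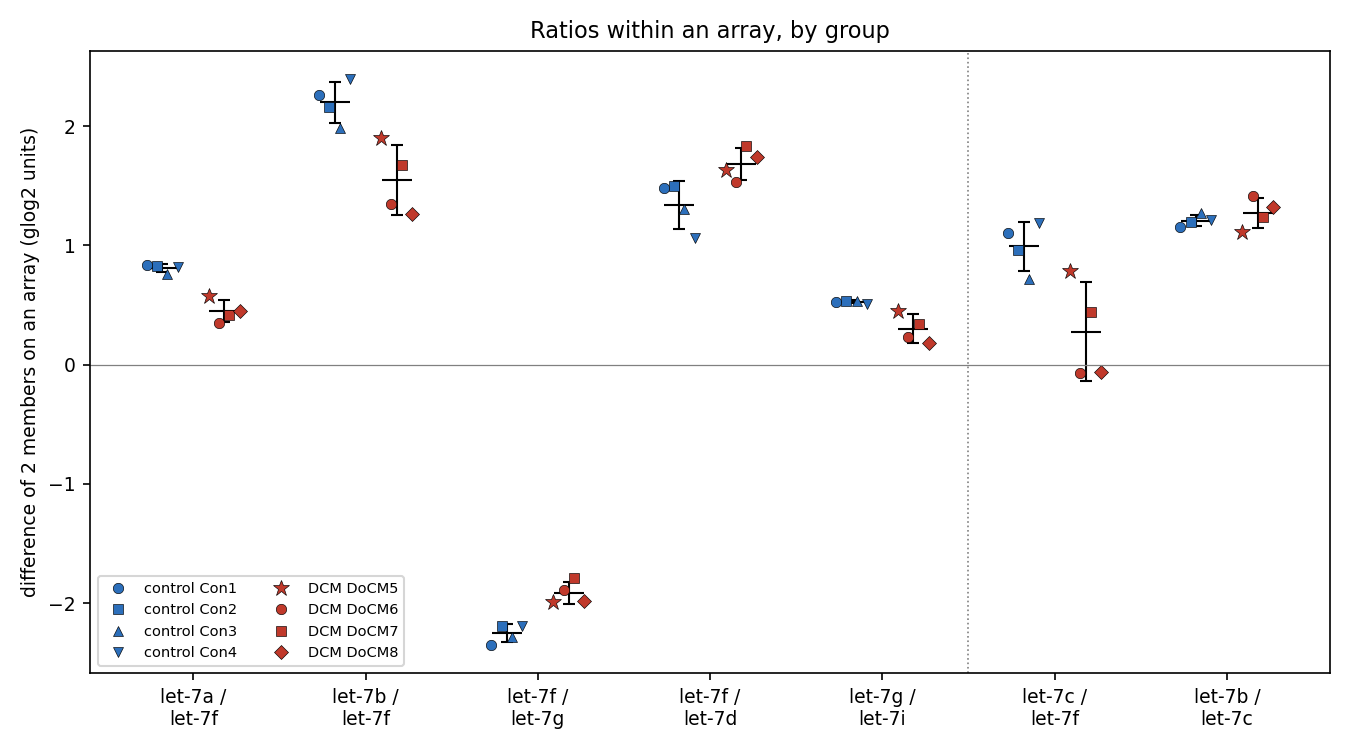
Difference in level between 2 members on the same array (glog2 units), with control arrays in blue, DCM arrays in red and the mean and SD of each group (n = 4) in black. The 5 pairs left of the dotted line have no overlap between the groups, and for comparison the 2 pairs to its right, cfa-let-7c with cfa-let-7f and cfa-let-7b with cfa-let-7c, overlap.

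The mean ratios of cfa-let-7b or cfa-let-7c to the other 6 members were lower in DCM, by -0.72 to -0.29 on the log2 scale. This direction follows from the group differences above, since these 2 miRNAs had the lowest differences of the family, and it is no separate result. Of these 12 ratios, 1, that of cfa-let-7b to cfa-let-7f, had no overlap between the groups, and 3 had none without DoCM5. The ratio of cfa-let-7c to cfa-let-7f was 0.78, -0.070, 0.44 and -0.059 in the DCM group and 1.10, 0.96, 0.71 and 1.19 in the control group. It overlapped because DoCM5 exceeded Con3.

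Each member was measured by a pair of probes with 20 features each, and both probes of each of the 8 detected members gave a group difference of the same sign. For cfa-let-7f the sizes were unequal. The dimmer probe had levels of 7.60, 6.39, 6.52 and 6.39 in the DCM group and 6.04, 5.59, 6.10 and 5.62 in the control group, a difference of 0.89 (standard error 0.34, limma p = 0.0210, adjusted p = 0.981 over 867 probes, exact permutation p = 0.0286). It passed both call limits. Its groups did not overlap, and 2.54% of all probes had groups without overlap, whether past the limits or not. The brighter probe gave 0.50 (standard error 0.32, limma p = 0.141, exact permutation p = 0.0571), with DoCM6 below Con1. Of the 16 probes of the members this was the one past both limits, beside 4.15% of all probes. Between the 2 probes of a member r was 0.954 for cfa-let-7f, the lowest, and 0.998 for cfa-let-7b, the highest. The brighter probe of cfa-let-7b was 1.3 to 1.4 times as bright as the dimmer one. The ratio was also 1.3 to 1.4 for mmu-let-7i and 1.6 to 1.7 for cfa-let-7g. It was larger for cfa-let-7a (2.6 to 3.1), cfa-let-7f (3.0 to 4.6), mmu-let-7d (3.4 to 4.8) and cfa-let-7c (3.7 to 4.7). The dimmer probe of cfa-miR-98 had at most 12 of its 20 features well above background on the arrays other than DoCM5. No ratio of brightness is given for cfa-miR-98.

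With the brightest probe of each name alone, 4 of the 28 member pairs had ratios without overlap between the groups. With the dimmest probe alone 9 of 28 did. The share of all pairs of names was not computed for these settings, and the counts cannot be set against it. The ratio of cfa-let-7a to cfa-let-7f and that of cfa-let-7g to mmu-let-7i had no overlap with either. The ratio of cfa-let-7b to cfa-let-7f overlapped with the brightest probes. The ratio of cfa-let-7f to mmu-let-7d overlapped with the brightest and with the dimmest probes. Over the 20 distinct settings in which normalization, filter, probes or arrays were varied, the main one included, the groups had no overlap in 16 for the level of cfa-let-7f, in 19 for the ratio of cfa-let-7a to cfa-let-7f and in 17 for that of cfa-let-7g to mmu-let-7i.

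The miRNAs encoded beside let-7 genes gave weak signals. Of the 7 names of miR-99, miR-100 and miR-125 on the array, 4 were detected, cfa-miR-99a, mmu-miR-99a, cfa-miR-125a and cfa-miR-125b, and 0 passed both limits. All 4 differences were below 0, with a median of -0.41 and of -0.48 without DoCM5. Over all names, 219 of 438 differences were above 0. The names cfa-miR-99a and mmu-miR-99a are the canine and the murine listing of miR-99a. The level of cfa-miR-99a, the brightest of the 4, was 5.61, 5.13, 5.54 and 5.60 in the DCM group and 6.16, 5.93, 5.47 and 5.49 in the control group. Its difference was -0.29 (standard error 0.28, limma p = 0.318, exact permutation p = 0.286). The next, mmu-miR-99a, had a difference of -0.23 (standard error 0.29, limma p = 0.436, exact permutation p = 0.343). Over the 8 arrays cfa-let-7c had an r of 0.36 (exact permutation p = 0.378) and a rho of 0.48 with cfa-miR-99a, and an r of 0.70 (exact permutation p = 0.0479) and a rho of 0.60 with cfa-miR-125b. The Benjamini-Hochberg adjustment covered 5 relations, those of cfa-let-7c and cfa-let-7a with these miRNAs and that of mmu-let-7d with mmu-let-7d*, given below. The smallest adjusted exact permutation p was 0.120 for r and 0.608 for rho. Without the 2 farthest arrays the values of r for cfa-let-7c were 0.27 and 0.46, and without DoCM5 they were 0.56 and 0.67. For cfa-let-7a, r was 0.12 with cfa-miR-99a (exact permutation p = 0.720) and 0.41 with cfa-miR-125b (exact permutation p = 0.360). These were 0.86 and 0.67 without the 2 farthest arrays and 0.34 and 0.12 without DoCM5.

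Passenger strands, the arms of the precursor that are mostly degraded, were rarely detected. Of the 11 passenger strand names of the family, all of them murine listings, 1 was detected, mmu-let-7d*. Its level was 6.92, 5.93, 6.05 and 6.09 in the DCM group and 6.30, 6.22, 5.98 and 6.58 in the control group. The groups overlapped, with a difference of -0.024 (standard error 0.30, limma p = 0.938, exact permutation p = 0.943). Without DoCM5 the difference was -0.24, and without DoCM8 it was 0.0096. Like the members it was highest on DoCM5. The r between mmu-let-7d and mmu-let-7d* was 0.76 over 8 arrays (exact permutation p = 0.0385, adjusted 0.120, rho 0.36) and 0.21 without DoCM5.

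The 5 names outside the family whose levels followed the mean of the centred member levels most closely over the 8 arrays were cfa-miR-151, cfa-miR-26b, mmu-miR-26b, cfa-miR-186 and cfa-miR-374b, with r between 0.974 and 0.994. The level of cfa-miR-151 was 7.05, 4.57, 4.86 and 4.85 in the DCM group and 5.21, 4.40, 5.01 and 4.88 in the control group. All 5 were highest on DoCM5, where they exceeded the median of the other arrays by 1.01 to 2.19. Without DoCM5, r was 0.959 for cfa-miR-151 and 0.917 for cfa-miR-26b, which were again the closest, and 0.784 for cfa-miR-374b. These names were selected for their r, which is therefore a description.

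Markers of other sources are given for the groups. Of the 5 erythrocyte names, cfa-miR-144 and mmu-miR-144 passed both limits as higher in DCM, by 0.76 (standard error 0.33, limma p = 0.0416, exact permutation p = 0.0571) and 0.98 (standard error 0.31, limma p = 0.00791, exact permutation p = 0.0286). Without DoCM5 or without DoCM8 cfa-miR-144 no longer passed, with 0.68 and 0.58, whereas mmu-miR-144 did, with 1.01 and 0.79. The 2 brightest of this list, cfa-miR-451 and cfa-miR-16, had differences of 0.052 and 0.054, which were 0.22 and -0.12 without DoCM5 and -0.037 and 0.0036 without DoCM8. The summed level of this list ran from 107329 to 159840 in the DCM group and from 121041 to 151560 in the control group. Of the 8 leukocyte names, mmu-miR-142-3p passed, by 1.28 (standard error 0.33, limma p = 0.00209, exact permutation p = 0.0286), whereas the 2 brightest, mmu-miR-223 and cfa-miR-223, had differences of -0.44 and -0.38. Over the 8 names 5 differences were above 0, with a median of 0.065. Without DoCM5 or without DoCM8 mmu-miR-142-3p passed as well, with 1.11 and 1.21. The summed level of this list ran from 6510 to 12266 and from 8880 to 11861. The names cfa-miR-144, mmu-miR-144 and mmu-miR-142-3p were singled out for passing the limits. Their adjusted p from limma was 0.956, 0.8655 and 0.458 in this order. Over all 438 names 8 (1.83%) passed as higher in DCM. The 2 miR-144 names are the canine and the murine listing of miR-144. Of the 7 platelet, 3 liver and 4 detected heart and muscle names, 0 passed. The 2 brightest platelet names, cfa-miR-191 and mmu-miR-24, had differences of -0.13 and -0.055, and of -0.34 and -0.16 without DoCM5, where the median of the platelet list went from -0.0025 to -0.16. The liver list was led by cfa-miR-192 and cfa-miR-122, with differences of 0.056 and -0.69, or 0.12 and -0.33 without DoCM5, and its summed level ran from 407 to 570 in the DCM group and from 411 to 788 in the control group. The heart and muscle list was led by cfa-miR-133b and cfa-miR-499, with differences of -0.44 and 0.69, or -0.16 and 0.48 without DoCM5, and its summed level ran from 108 to 164 and from 60.7 to 372. The heart miRNAs cfa-miR-208a, cfa-miR-208b and cfa-miR-133a were not detected. The part of blood cells in the differences of cfa-let-7f and mmu-let-7i was not tested.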

How the data were processed

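Serum RNA was labelled with Cy3 and hybridized to a custom array of canine and murine miRNA probes, and features were read with Agilent Feature Extraction 10.7.3.1 per the labels. The authors deposited an intensity for every feature, background-subtracted and not normalized between arrays, and a table that holds the same values. Groups were taken from the labels. Control features and outlier-flagged features were left out. Features above the scanner's background limit in 2 or more arrays of the same group were kept, and the mean over the kept features of a name was normalized by vsn (quantile 0.9, 5 slices, 7 iterations, own implementation, tested on simulated data). All 438 detected names were fitted with limma 3.58.1 in R 4.3.3, with Benjamini-Hochberg adjustment. Exact permutation tests were two-sided. Summed levels of a list are sums of 2 to the power of the glog2 levels. Canine gene neighbours came from the RefSeq table of UU_Cfam_GSD_1.0, for which no coordinates are given, because the arrays were annotated on another build. The members, marker lists and tests were chosen with earlier results of these data known. The text names every family member, the 2 brightest names of each marker list and the 5 names most like the family mean. Ratios, single probes and the brightest or dimmest probe of a name were added after seeing the data. Sequences were not used here, and a list of other miRNAs with the let-7 seed was therefore not made. Figures were drawn with matplotlib 3.10.9.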

Additional observations from a re-analysis of the deposited data

Results flagged for a closer look

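Within the DCM group the level of mmu-let-7d was 6.85 on DoCM5, far from 5.79 to 5.90 on the other 3 arrays. The gap to the nearest array took up 0.893 of the range of the group. The mean of the centred levels of the 8 members was 1.0 on DoCM5, and the other DCM arrays lay between -0.31 and -0.094, a gap of 0.832 of the range. In all, 18 groups of 4 arrays were examined in this way and 2 stood out, whereas chance marks about 1 in 20, which is 0.9 of 18. The 8 members are correlated, and these groups are not independent.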

How the results depend on the processing

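No paired analysis by replicate number was possible because no number of the labels occurs in both groups. With the slide column as a block, 1 array of each group per column, the differences are the same by construction, 18 names and 0 members passed both call limits, and the adjusted p of cfa-let-7f was 0.964 from limma. The deposited value table holds the same signals and gave the same values. Over all 22 alternative settings, a member passed both limits only with the dimmest probe of each name, added after seeing the data. This was cfa-let-7f (0.84, limma p = 0.0245, exact permutation p = 0.0286, adjusted p = 0.835). The count of names past both limits, 18, was 34 with array weights, 34 with features well above background in 1 array, 52 without a filter, 3 with normexp background correction of the median signal followed by quantile normalization, a setting that changes these choices together (15 with quantile normalization alone), and 12 to 29 with an array left out in turn (12 without DoCM8, 29 without DoCM6). The adjusted count of 0 was 1 with scaling to the 75th percentile over the detected names, where the median of all names was -0.21 and 3 names were higher and 21 lower. With that percentile over all names the median of all names was 0.097. The median difference of the members was -0.032 to 0.36 with an array left out (negative without DoCM5), -0.024 with array weights, and 0.15 to 0.51 otherwise. The median r of the member pairs, 0.891, was 0.457 to 0.924 with an array left out, lowest without DoCM5. The count of member pairs whose ratio had no overlap, 5, was 1 with the median over features, 10 with normexp and quantile normalization together (7 with quantile normalization alone), 9 with the dimmest probes, and 5 to 13 with an array left out (9 without DoCM5, 8 without DoCM7, 13 without Con3). The share of all pairs of names was computed for all 8 arrays, without DoCM5 and without DoCM8 only. The counts of the other settings cannot be set against it. Signs of small differences turned. With array weights the differences were -0.0434 for cfa-let-7a, -0.0166 for cfa-let-7g and -0.0308 for mmu-let-7d. For cfa-let-7b they were 0.2106 with the 75th percentile over all names, 0.1274 with 1 array well above background and 0.0797 without a filter, and for cfa-let-7c 0.1456, 0.0644 and 0.0147 in the same order, and 0.3938 with the median over features. With an array left out they ran from -0.070 to 0.37 for cfa-let-7a, -0.44 to 0.11 for cfa-let-7b, -0.55 to 0.091 for cfa-let-7c, -0.032 to 0.36 for cfa-let-7g and -0.0315 to 0.35 for mmu-let-7d. The differences of cfa-let-7f, from 0.33 to 0.85, of mmu-let-7i, from 0.17 to 0.75, and of cfa-miR-98, from 0.096 to 0.68, were above 0 in every setting run. The groups of cfa-let-7f overlapped with the 75th percentile over the detected names, the median over features, no filter and the brightest probes. The ratio of cfa-let-7a to cfa-let-7f overlapped with the median over features, and that of cfa-let-7g to mmu-let-7i also with quantile normalization, alone and after normexp. The part of the unequal brightness of the 2 probes of a member in the result with the median over features was not tested. Other causes were not tested either.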
